A study of Drosophila melanogaster with 4 samples.

Results

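The genes bicoid (bcd), exuperantia (exu), swallow (swa) and staufen (stau) encode the mRNA that patterns the head of the fly embryo and 3 proteins that place it at the anterior pole. They were chosen by name, as 4 of the 14001 annotated genes of the tables and 13 of the 30652 listed transcripts. RNA was read from Drosophila melanogaster embryos of strain w118 aged 0–1 h or 4–5 h from egg laying, in 2 libraries of each age (replicates 1 and 2). The assay was Nanopore direct RNA sequencing, which reads native RNA molecules from the 3′ end. RNA came from the supernatant of a spun lysate, and that of the pellet was not analysed here. The design places the stages before and after the embryo's own genome is switched on. Nothing in the labels says that the replicates were separate collections, so the spread that p-values measure, that between these samples, may be technical.

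As background, nurse cells of the ovary make bcd mRNA, and Exuperantia, Swallow and Staufen act in turn, with microtubules and dynein, to hold it at the anterior of the egg. Its 3′ untranslated region (UTR) carries the signals for this transport. After egg laying the mRNA is translated into a gradient of Bicoid, a homeodomain transcription factor, and it is degraded as the embryo becomes cellular.

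Each library held 429534 to 883138 reads, on 6930 to 7829 genes. The share of reads on ribosomal protein genes was 23.0% to 25.9% at 0–1 h and 49.2% to 49.6% at 4–5 h, and the read-weighted transcript length 1665 to 1798 nt, then 1266 to 1338 nt. Levels below are CPM, reads per 1000000 on library sizes scaled by TMM (trimmed mean of M-values), and 1 read was worth 1.15 to 1.22 CPM at 0–1 h and 1.84 and 3.33 CPM at 4–5 h. Over all 6042 tested genes the median log2 change between stages was −0.10 on this scale, −1.29 with library size only and −1.80 on the log2(TPM + 1) scale. A direction given below is therefore one relative to most other genes, not an amount per embryo. These bulk samples cannot tell how much of the embryo held an RNA from how much each part held. The part of library makeup in the results was not tested.

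Between 0–1 h and 4–5 h exu fell 50.3-fold and swa 13.8-fold, stau rose 2.80-fold and bcd did not pass the test (edgeR's quasi-likelihood F test, Benjamini-Hochberg adjusted p under 0.05 over all tested genes). Of the 4 genes 1 was thus called higher, against 28.6% of all tested genes, and 2 were called lower, against 31.5%. With library size only, 3 were lower, against 63.3% of all genes, and none was higher, against 10.9%. bcd, exu and swa passed the filter on low reads (minimum count 10) only through their 0–1 h reads, so calls of lower were favoured for them.

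**Figure D1:**
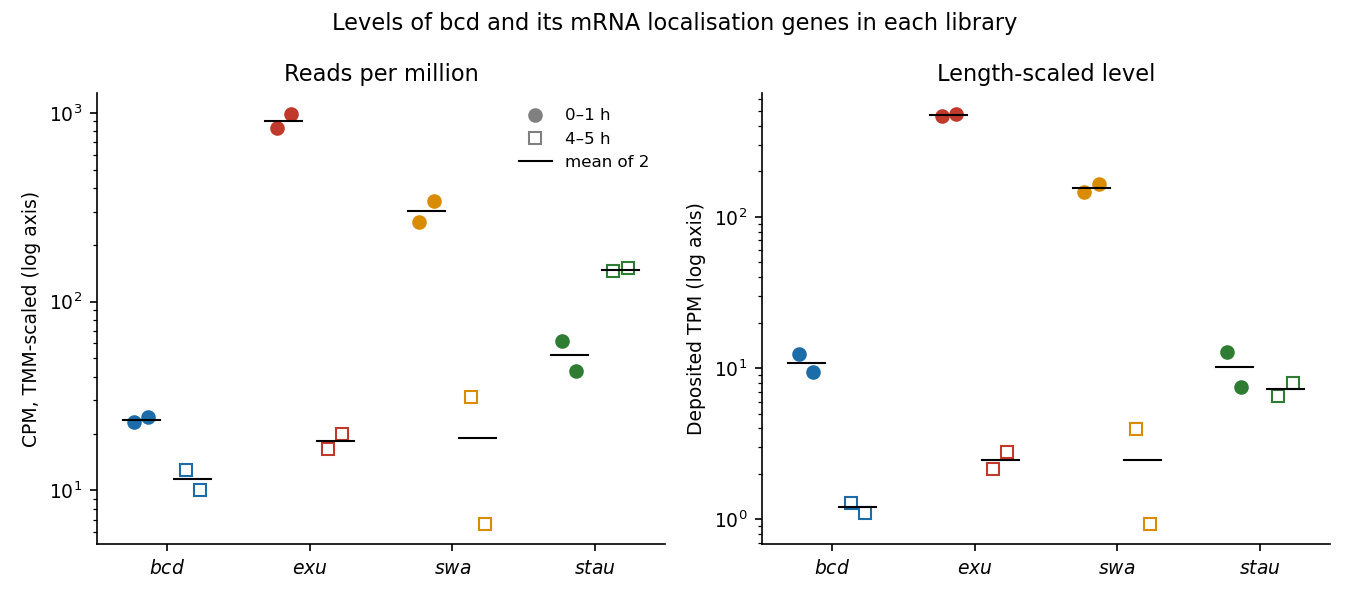
Level of each gene in each library on log axes, as TMM-scaled CPM on the left and as the authors' TPM on the right, with circles for 0–1 h, squares for 4–5 h and a line at the mean of 2. The squares of exu and swa lie far below their circles in both panels, while those of stau lie above them in CPM and overlap them in TPM.

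bicoid (FBgn0000166, BDGP6.54 chromosome 3R 6755842–6759466, minus strand) had few reads at both stages. It had 20 reads in each 0–1 h library and 7 and 3 at 4–5 h. In CPM these were 23.0 and 24.4 at 0–1 h and 12.8 and 9.99 at 4–5 h, or 23.7 ± 1.00 and 11.4 ± 2.02 (mean ± SD, n = 2 per stage). Both 4–5 h libraries lay below both 0–1 h libraries. The log2 change was −0.99 (SE 0.53) with an adjusted p of 0.100 in edgeR. The ratio of 0–1 h to 4–5 h reads, scaled by TMM library sizes, was 2.00 with a 95% counting interval of 0.983 to 4.49. Such ratios and intervals, here and below, take the TMM scaling as given, and the intervals cover counting error only. The interval for bcd includes a ratio of 1. With library size only the change was −2.19 (edgeR adjusted p = 4.1e-04), and on log2(TPM + 1) it was −2.42 (limma adjusted p = 1.5e-05), both past the threshold. Set against the median of all genes in the same fit, bcd stood at −0.90 with TMM, −0.89 with library size only and −0.63 on log2(TPM + 1).

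exuperantia (FBgn0000615, chromosome 2R 20667427–20671083, minus strand) encodes an RNA-binding protein of the first step, in the nurse cells. It had 722 and 808 reads at 0–1 h and 9 and 6 at 4–5 h, so the stages lay far apart. Its level was 830 and 986 CPM in the 0–1 h libraries and 16.5 and 20.0 CPM at 4–5 h. The log2 change was −5.65 (SE 0.30, edgeR adjusted p = 1.4e-29), and the TMM-scaled ratio was 51.0 with a counting interval of 30.8 to 91.3. Among the genes with reads, ordered by read number, exu ranked 119th and 111th at 0–1 h and 4923rd and 4458th at 4–5 h. By share it held 0.126% and 0.145% of all reads at 0–1 h and 0.00102% and 0.00140% at 4–5 h. The gene shares 448 bp with galla-1, on the opposite strand. galla-1 had 31, 26, 15 and 8 reads, far fewer than exu at 0–1 h but more than exu at 4–5 h, and whether the counting used strand is not given in the sources used here.

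swallow (FBgn0003655, chromosome X 6363418–6365708, minus strand) encodes a protein that binds the dynein light chain and keeps bcd mRNA in place late in oogenesis. It had 230 and 279 reads at 0–1 h, then 17 and 2 at 4–5 h. The 4–5 h libraries lay far below the 0–1 h libraries but differed widely from each other, at 31.2 and 6.66 CPM against 264 and 340.4. The log2 change was −3.78 (SE 0.34, edgeR adjusted p = 1.3e-14). Its size rested on the library of 17 reads: the fall was 44.1-fold without 4–5 h replicate 1 and 9.63-fold without 4–5 h replicate 2, and swa was called in both. The pseudogene swaPsi, beside swa, had 5, 1, 0 and 0 reads, and with the reads of both summed the change was −3.80.

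staufen (FBgn0003520, chromosome 2R 18117896–18125779, minus strand) encodes a protein that binds double-stranded RNA. It anchors bcd mRNA through its 3′ UTR, carries oskar mRNA to the posterior and later acts in dividing neuroblasts. It had 54 and 35 reads at 0–1 h and 79 and 45 at 4–5 h, or 62.1 and 42.7 CPM against 145 and 149.9 CPM. On this scale both 4–5 h libraries lay above both 0–1 h libraries. The log2 change was 1.48 (SE 0.29, edgeR adjusted p = 5.7e-06). It was 0.29 with library size only (edgeR adjusted p = 0.365) and −0.39 on log2(TPM + 1) (limma adjusted p = 0.332), so the rise is one relative to other genes. Set against the median of all genes, stau stood at 1.58 with TMM, 1.58 with library size only and 1.41 on log2(TPM + 1). Its rank by reads was 2326th and 3330th at 0–1 h and 972nd and 887th at 4–5 h.

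**Figure D2:**
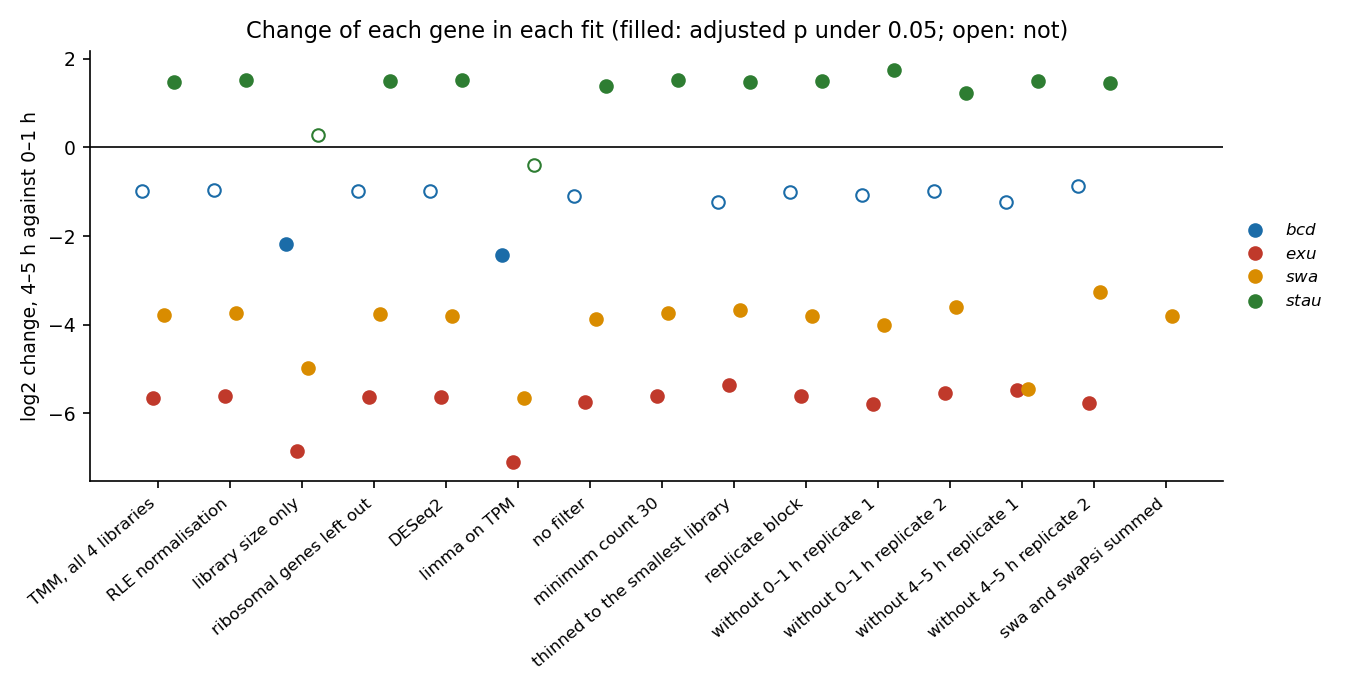
Fitted log2 change of each gene, 4–5 h against 0–1 h, in each fit named along the axis; filled points had an adjusted p under 0.05. exu and swa are filled and negative in every fit drawn, bcd is filled with library size only and on TPM, and stau is open in those same fits and below 0 on TPM.

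Compared per length, in the authors' TPM, the order of the 4 genes differed between the stages. At 0–1 h exu was at 462 and 479 TPM and swa at 145 and 166. bcd was at 12.4 and 9.37 TPM and stau at 12.8 and 7.47. The ranges of exu and swa did not overlap, with means 3.02-fold apart, and mean swa stood 14.3-fold above mean bcd, whereas bcd and stau overlapped. At 4–5 h stau was highest, at 6.57 and 8.01 TPM, above exu at 2.15 and 2.78 with means 2.96-fold apart. swa, at 3.98 and 0.937 TPM, overlapped both exu and bcd, which was at 1.29 and 1.11. In rank by TPM stau moved from 4616th and 5159th to 2856th and 2637th, and exu from 270th and 239th to 4665th and 4445th.

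All 5 annotated forms of bcd share the first and last exons and a 3′ UTR of 834 nt, and they differ in the middle exons. bcd-RD (2499 nt, 4 exons) encodes 489 amino acids. bcd-RA (1479 nt, 2 exons) lacks both middle exons, and with them the homeodomain, and encodes 149 amino acids. For exu all 4 forms encode the same 532 amino acids: exu-RA (2320 nt) and exu-RB (1988 nt) differ in the 5′ UTR, and exu-RC and exu-RD end 925 nt further downstream. swa has the single form swa-RA (2022 nt, 548 amino acids). stau-RA (5240 nt) encodes 1026 amino acids, stau-RB (4910 nt) starts at another first exon and encodes 914, and stau-RC ends 1728 nt upstream of both with a 3′ UTR of 157 nt in place of 1885 nt.

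**Figure D3:**
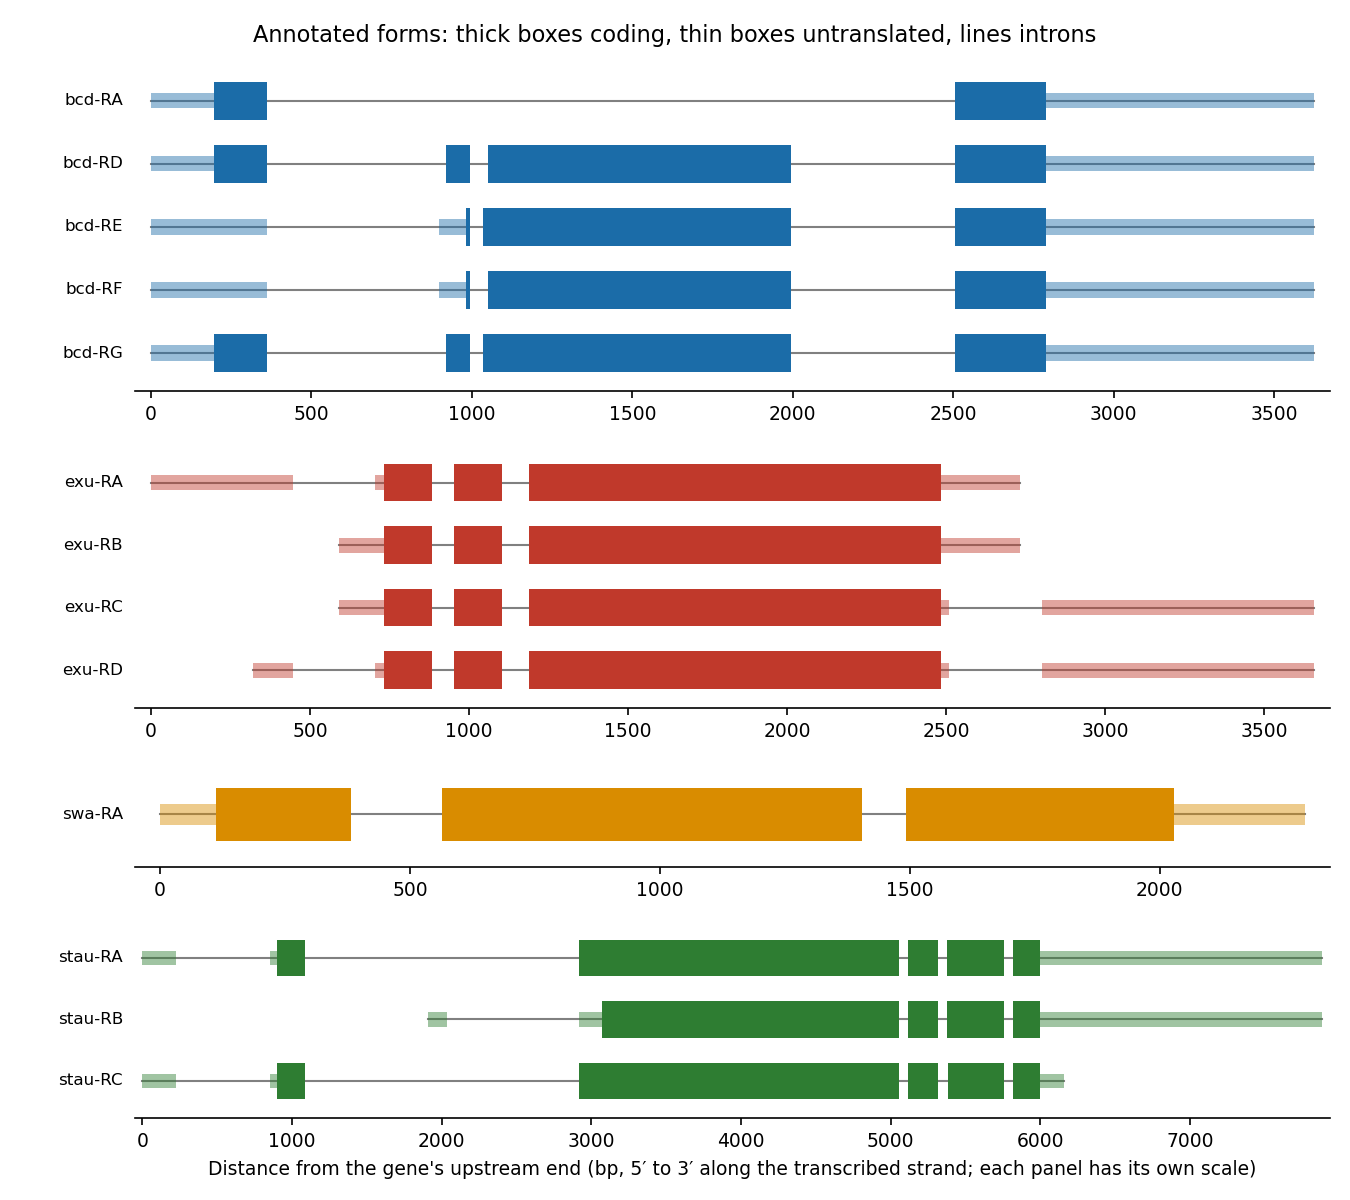
Annotated forms of the 4 genes along the transcribed strand, in bp from each gene's upstream end, with thick boxes coding, thin boxes untranslated and lines introns; each panel has its own scale. exu-RC and exu-RD reach past the other 3′ ends, and stau-RC stops 1728 nt before the ends of stau-RA and stau-RB.

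Nearly all exu reads went to exu-RB, the form with the short 5′ UTR. It took 697 and 696 reads at 0–1 h, 96.5% (exact 95% binomial interval 94.9 to 97.7) and 86.2% (83.6 to 88.4) of the gene. exu-RA took 22.1 and 109.7 reads, 3.05% (1.92 to 4.58) and 13.6% (11.3 to 16.2), so the 0–1 h replicates differed beyond counting error. exu-RA and exu-RB share their last 1874 nt and differ only upstream of that, by 446 nt and 114 nt. Reads that end short of this cannot tell them apart, and how far reads reached was not analysed here. At 4–5 h exu-RB had 9 and 4.89 reads and exu-RA 0 and 1.11, where 0 of 9 reads allows a share of up to 33.3%. exu-RC, with the extended 3′ end, had 3.07 and 2.07 reads at 0–1 h and 0 at 4–5 h. Thus it took 0.425% (0.0858 to 1.21) and 0.256% (0.0300 to 0.891) of the gene's reads at 0–1 h. exu-RD had no reads in any library, which allows up to 0.196% at 0–1 h. It shares its last 2507 nt with exu-RC, so this limit holds only as far as reads told those forms apart.

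Most bcd reads went to bcd-RD, with 14.1 and 20 reads at 0–1 h and 7 and 3 at 4–5 h. bcd-RA had 5.89 reads in 0–1 h replicate 1, 29.5% of the gene (exact interval 11.9 to 54.3), and 0 in the other libraries. bcd-RE, bcd-RF and bcd-RG had 0 reads in all 4 libraries, which allows up to 7.50% of bcd reads at 0–1 h and 30% at 4–5 h. bcd-RD shares its last 2063 nt with bcd-RE and bcd-RG and its last 2139 nt with bcd-RF. The limits hold only as far as reads told these forms apart, which was not tested.

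For stau the assignment switched between replicates of the same stage. stau-RA had 9.72 and 35.4 reads at 0–1 h and 79 and 0 at 4–5 h. stau-RB had 44.3 and 0 at 0–1 h and 0 and 45 at 4–5 h. The share of stau-RB was thus 82.0% (exact interval 68.6 to 90.7) in 0–1 h replicate 1 and 100% in 4–5 h replicate 2, and 0 in the other libraries. These forms share their last 4781 nt and differ only upstream of that, by 459 nt in stau-RA and 129 nt in stau-RB. How far single reads reached toward the 5′ end was not analysed here. stau-RC, with the short 3′ UTR, had 0 reads throughout, which allows up to 3.37% of stau reads at 0–1 h and 2.42% at 4–5 h.

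**Figure D4:**
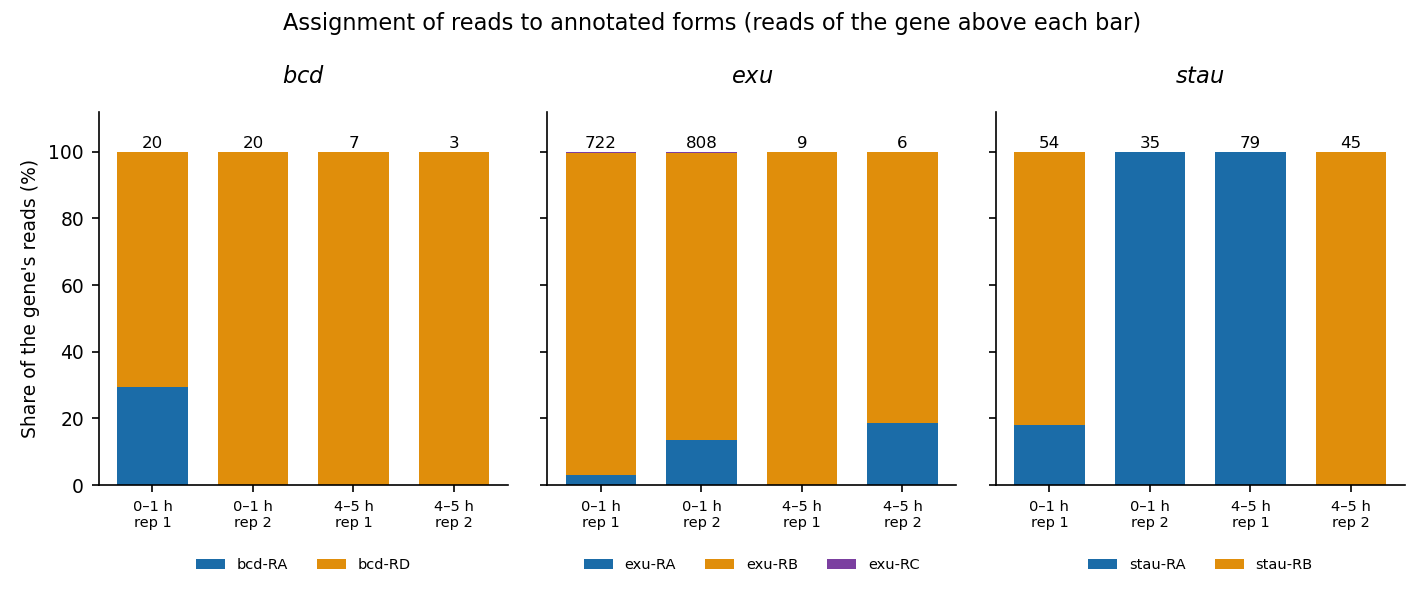
Share of each gene's reads assigned to each annotated form in each library, in percent, with the gene's reads above each bar; swa has 1 form and is not drawn. exu-RB leads in all 4 libraries, whereas stau-RA and stau-RB exchange places within each stage.

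The same switch was found in other genes. Of 769 genes with at least 2 forms and at least 5 reads in every library, 121 (15.7%) had the pattern of stau, in which 0–1 h replicate 1 shared its leading form with 4–5 h replicate 2 and the other two libraries shared another. The opposite pairing, with replicates 1 sharing one form and replicates 2 another, was found in only 15 (1.95%). Why these counts differ was not tested. The leading form differed between the stages, with replicates alike, in 117 (15.2%), and was the same in all 4 libraries in 217 (28.2%), exu among them. Within a stage it differed in 282 genes (36.7%) at 0–1 h and 332 (43.2%) at 4–5 h.

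Form usage was tested for exu and stau, each with 2 forms past the filter, and neither passed. The adjusted p was 0.998 for both (edgeR's diffSpliceDGE, gene-level F test), where 108 of 823 genes passed, or 13.1%. That count was 0 with a replicate block and 0 to 1 with any 1 library left out. bcd had 1 form past the filter and swa has 1, so neither could be tested. Fitted form by form, exu-RB fell, with a log2 change of −5.80 (SE 0.23, edgeR adjusted p = 0.0367), where 11.3% of 6630 transcripts were lower. That call was lost with a replicate block (adjusted p = 0.250) and without any 1 library (0.0841 to 0.292). exu-RA was at −5.92 (SE 1.71, edgeR adjusted p = 0.102), swa-RA at −4.09 (0.0527) and bcd-RD at −0.98 (0.256). For stau-RA the change was 1.26 (SE 2.05) and for stau-RB 1.36 (SE 2.89), with edgeR adjusted p of 0.715 and 0.786.

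The genes closest to each of the 4 in level over the 4 libraries were found by Euclidean distance in log2 CPM among 6042 genes. Closest to exu were nanos, the posterior determinant (distance 0.73), bru1, a translational repressor of oskar (0.90), and gnu, a subunit of the PNG kinase of the egg (1.12). Their log2 changes were −5.40, −5.86 and −4.45, against −5.65 for exu. For swa they were CG11674 (0.58), CanB2, a calcineurin regulatory subunit (0.83), and Sod3, a superoxide dismutase (0.94), with changes of −3.60, −4.15 and −4.46. Closest to stau were Sf3b2, a splicing factor subunit (0.22), Calr (0.32) and MTA1-like (0.33), with changes of 1.43, 1.47 and 1.22. For bcd they were Rtel1 (0.15), Sqor (0.17) and CG31517 (0.24), with changes of −0.96, −1.13 and −0.96. Since levels chose these genes, their changes are no separate result.

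Genes that work with the 4 were read from lists, whose members are given by counts, by the median log2 change and by their most abundant tested genes. The counts stand beside those over all tested genes, of which 31.5% were lower and 28.6% higher with TMM and 63.3% lower and 10.9% higher with library size only. Among 10 genes of the Exuperantia and Staufen mRNA-protein particles, 6 fell, 3 rose and 1 did not pass the test, with a median of −1.57. On library size alone 8 were lower and none higher. me31B, a DEAD-box helicase, had 1733 and 1537 reads at 0–1 h and 267 and 173 at 4–5 h, a log2 change of −1.86 (SE 0.22). tral, its partner in the same particles, fell by 2.07. The hnRNP genes sqd and Hrb27C rose by 1.01 and 0.52, but with library size only stood at −0.17 and −0.66 and on log2(TPM + 1) at −1.22 and −1.89, and Hrb27C lost its call without 0–1 h replicate 2 and without 4–5 h replicate 2 (edgeR adjusted p = 0.401 and 0.131). It also lost it with a replicate block (0.0926) and with no filter (0.0800), and in DESeq2 (adjusted p = 0.101). yps, the Y-box partner of Exuperantia, was chosen after its values were seen: it had 120, 130, 243 and 107 reads and rose by 1.44, but stood at 0.25 with library size only (edgeR adjusted p = 0.279) and at −0.52 on log2(TPM + 1).

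Of 10 dynein, dynactin and adaptor genes 6 fell, 2 rose and 2 did not pass, with a median of −1.27. With library size only 7 were lower and none higher, against 63.3% and 10.9% of all genes. Lis-1, a dynein regulator, fell by 1.43 and Dlic, the light intermediate chain, changed by −3.25. egl, the RNA adaptor of dynein, had 34 and 31 reads at 0–1 h and 0 and 2 at 4–5 h. Its TMM-scaled ratio was 16.3 (counting interval 4.32 to 137). Both egl and Dlic passed the filter on low reads only through their 0–1 h reads, so calls of lower were favoured for them. ctp, the light chain that Swallow binds, had 352, 259, 332 and 202 reads and rose by 0.83, but stood at −0.35 with library size only and −1.23 on log2(TPM + 1), and it lost its call without 0–1 h replicate 2 (edgeR adjusted p = 0.0672). The light chain robl rose by 1.63 and stood at −0.29 on log2(TPM + 1).

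Of 11 kinesin and microtubule organisation genes 7 fell, 1 rose and 3 did not pass, with a median of −1.83, against 31.5% lower and 28.6% higher of all genes. Scaled by library size only, 10 were lower and none higher. alphaTub67C, the maternal alpha-tubulin, had 622 and 482 reads at 0–1 h and 4 and 4 at 4–5 h, a log2 change of −6.06 (SE 0.34, edgeR adjusted p = 3.9e-28). gammaTub37C, the maternal gamma-tubulin, had 76 and 83 reads, then 0 and 1, a TMM-scaled ratio of 79.5 (14.1 to 3159.6). Both maternal tubulin genes passed the filter on low reads only through their 0–1 h reads, so calls of lower were favoured for them. Grip84, of the gamma-tubulin complex, fell by 2.00, and it too passed the filter only through its 0–1 h reads. par-1, a polarity kinase, was at −0.54 and did not pass.

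All 3 genes of ESCRT-II, a membrane-sorting complex that binds bcd mRNA and is needed for Staufen to localise it, rose. Over all genes 28.6% were higher. Vps25 changed by 1.07, lsn by 1.48 and Vps36 by 1.70, but with library size only none passed, with Vps25 at −0.12, and on log2(TPM + 1) they stood at −0.87, −0.43 and −0.21. Of 9 genes of bcd mRNA adenylation and repression 4 fell, 1 rose and 4 did not pass, with a median of −0.53, against 31.5% lower and 28.6% higher of all genes. With library size only 8 were lower and none higher, and on log2(TPM + 1) 9 were lower. In DESeq2, in thinned libraries and with the replicate block only 3 were lower. The 1 that rose, brat, a translational repressor, was at 0.70, but at −0.48 with library size only and −1.93 on log2(TPM + 1), and no gene of the list was called higher in DESeq2, with the replicate block, in thinned libraries, without 0–1 h replicate 2 or without 4–5 h replicate 2. wisp, the cytoplasmic poly(A) polymerase of the egg, had 254 and 180 reads at 0–1 h and 24 and 8 at 4–5 h, a log2 change of −2.78 (SE 0.30). nanos fell by 5.40, but it passed the filter on low reads only through its 0–1 h reads, so a call of lower was favoured. Pop2, a deadenylase, was at −0.15 and smg, which recruits it, at 0.36, and neither passed; smg stood at −0.84 with library size only and −1.39 on log2(TPM + 1).

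Of 12 genes that Bicoid regulates 9 passed the filter on low reads, and 6 rose and 3 fell, with a median of 4.34. Over all genes 28.6% were higher and 31.5% lower. With library size only 6 were higher and 3 lower, against 10.9% and 63.3% of all genes. oc, eve and croc were too low to test. The 6 that rose, gt, Kr, kni, ems, btd and slp1, passed only through their 4–5 h reads, so calls of higher were favoured for them. slp1, a head segmentation gene, had 0 and 2 reads at 0–1 h and 64 and 42 at 4–5 h. Its TMM-scaled ratio was 106 (counting interval 28.6 to 887). The gap gene kni had 2, 0, 33 and 9 reads. The head gap genes ems and btd had 2, 0, 20 and 21 reads and 1, 0, 18 and 9. The 3 targets that are also maternal mRNAs fell, cad by 3.20, cnc by 1.86 and hb by 0.92. Of these, cad and cnc passed the filter only through their 0–1 h reads, so calls of lower were favoured for them. hb was not called in DESeq2 (adjusted p = 0.127) and lost its call without 0–1 h replicate 1 and without 4–5 h replicate 1. Of the list only 2 were lower in DESeq2 and in thinned libraries. In thinned libraries 4 were higher, and at minimum count 30 only 2.

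In neuroblasts Staufen binds Miranda and carries prospero mRNA. Of the 6 listed partners and cargoes 5 were tested, and 2 were called higher and 3 did not pass, with a median of 0.66. Over all genes 28.6% were higher and 31.5% lower. With library size only 2 were higher and 1 lower, against 10.9% and 63.3% of all genes. Both that were called, mira and pros, passed the filter on low reads only through their 4–5 h reads, so calls of higher were favoured for them. mira had 4 and 6 reads at 0–1 h and 150 and 64 at 4–5 h, a log2 change of 5.34 (SE 0.37). pros had 0, 1, 16 and 11 reads, a TMM-scaled ratio of 54.0 (counting interval 8.90 to 2210.8). In thinned libraries only 1 of the list was called higher. numb, pon and baz, which act in asymmetric division, were at −0.04, 0.66 and 0.37, and with library size only at −1.25, −0.53 and −0.81. Over the same libraries stau rose 2.80-fold with TMM and stood at 0.29 in log2 with library size only.

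Among 8 other localised maternal mRNAs 7 were tested, 6 fell and 1 rose, with a median of −4.35, against 31.5% lower and 28.6% higher of all genes. All 7 were lower with library size only, against 63.3% of all genes. Hsp83, a chaperone mRNA degraded outside the pole cells, fell by 3.35 and pgc, of the germ line, by 4.35. CycB rose by 0.59, but stood at −0.60 with library size only and −1.34 on log2(TPM + 1). It lost its call with a replicate block, without 0–1 h replicate 1, without 0–1 h replicate 2 and without 4–5 h replicate 1. Beside these, exu stood at −5.65, swa at −3.78 and bcd at −0.99.

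**Figure D5:**
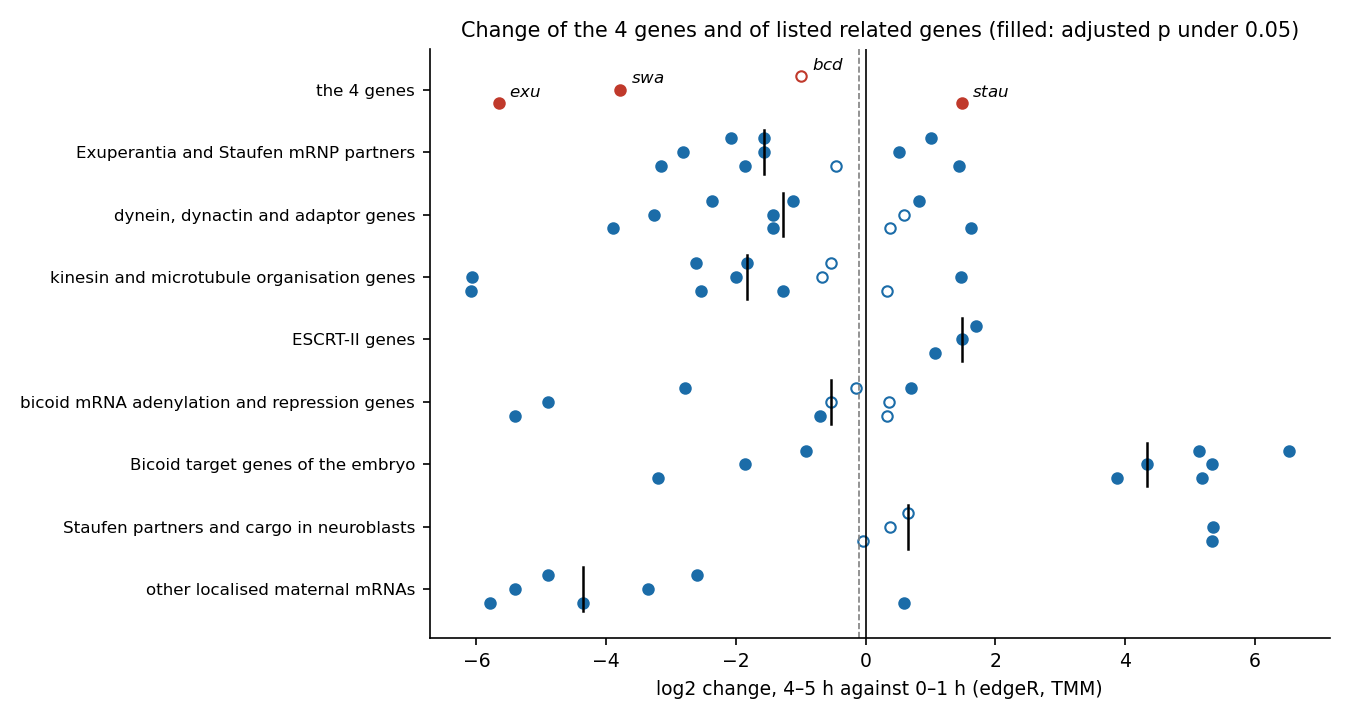
Log2 change of each tested gene, 4–5 h against 0–1 h, for the 4 genes and the related lists; filled points had an adjusted p under 0.05, short bars are list medians and the dashed line is the median of all genes. The ESCRT-II genes stand at the level of stau with TMM, though all 3 lie below 0 on log2(TPM + 1), and the other localised maternal mRNAs lie near exu and swa except CycB, which lies below 0 with library size only and on log2(TPM + 1).

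Of the markers of other tissues, those of follicle cells were low throughout. Those of muscle and cuticle were low at 0–1 h, and at 4–5 h most of their reads lay on few genes. The 13 follicle cell markers, from the maternal tissue around the egg, had 0, 0, 3 and 3 reads in all, and 9 of them had none. The 10 muscle and cuticle markers of late embryos had 2, 0, 94 and 84 reads, and 3 of them had none in any library. The cuticle markers obst-E and Cpr47Eb were among those 3. Act87E, a muscle actin, had 0, 0, 73 and 39 of these reads. It stood at least 37.1-fold higher in CPM at 4–5 h against a floor of 3 reads per library. Act87E alone passed the filter on low reads, and only through its 4–5 h reads. Act57B followed with 1, 0, 7 and 22 reads. The part of these markers in the change of stau was not tested.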

How the data were processed

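The authors deposited, per the file headers, a Salmon table for each of the 4 libraries with estimated counts, TPM, length and effective length per transcript. The submitters' processing notes name minimap2, Salmon and BDGP6, with versions, filters and strand setting not given in the sources used here. Deposited TPM were divided by an effective length that lay 250 nt below the length for 99.2% of transcripts. Of 30652 transcripts 30280 matched the Ensembl annotation of BDGP6.54 by identifier, and the other 372 kept their own; the lengths of 99.4% were the same in both. Estimated counts were summed per gene, rounded and tested with edgeR 4.0.16 in R 4.3.3 (minimum count 10, TMM, robust fit, stage as only term); transcripts were rounded and tested likewise, and TPM plus 1 with limma 3.58.1. DESeq2 1.42.0, other scalings, filters, thinning, summed forms, a replicate block and each library left out served as alternatives. The steps were tested on simulated data. Intervals of shares are Clopper-Pearson, and a count of 0 was taken as up to 3 reads. Both take the assignment of reads to forms as given.

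The 4 genes and the lists were chosen with earlier results of these data known. Named are the 4 genes, their forms with reads, the 4 tested genes with most reads in each list, called list genes with at most 3 reads at a stage, and the 3 nearest genes by log2 CPM (prior count 2). With 2 pairs of replicate numbers, deviations from the stage means correlated at −0.16 over genes and −0.43 over transcripts, so the numbers were not taken to pair the libraries.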

Additional observations from a re-analysis of the deposited data

How the results depend on the processing

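exu and swa kept their direction and their call in every alternative run, from −7.09 to −5.36 and from −5.65 to −3.27 in log2. With library size only, bcd reached −2.19 and was called and stau came to 0.29 and was not, with 656 genes higher and 3823 lower; on log2(TPM + 1) (limma) the values were −2.42 for bcd and −0.39 for stau, with 312 higher and 4798 lower. DESeq2 called 1124 genes lower. bcd had no value at minimum count 30. Among the listed genes named by the rule the sign turned with library size only for sqd (−0.17), Hrb27C (−0.66), ctp (−0.35), Vps25 (−0.12), smg (−0.84), pon (−0.53), baz (−0.81) and CycB (−0.60), and on log2(TPM + 1) for sqd (−1.22), Hrb27C (−1.89), ctp (−1.23), robl (−0.29), Vps25 (−0.87), lsn (−0.43), Vps36 (−0.21), smg (−1.39), pon (−1.16), baz (−0.94) and CycB (−1.34). Of the other listed genes sw, DCTN2-p50, Grip75, twin and brat turned under both (−0.81, −0.60, −0.85, −0.87 and −0.48 with library size only), and yps (−0.52) and gammaTub23C (−0.42) on log2(TPM + 1). numb was at 0.0053 at minimum count 30 and from −0.46 to 0.19 with 1 library left out. These scalings move the median of all genes; other causes were not tested.

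Form usage was called for 43 genes with the same coding sequences summed, 0 with the replicate block (92 at unadjusted p under 0.05 in diffSpliceDGE) and 0 to 1 with 1 library left out. The numbers correlated negatively, so a crossed replicate block was added after seeing the data, and it called 0 genes (200 at unadjusted p under 0.05). With the uncrossed replicate block stau-RA came to −0.086, while bcd, exu, swa and stau kept the direction and call of their genes. With 1 library left out stau-RA ran from −7.20 to 2.50 and stau-RB from −7.30 to 8.29. exu and stau had no usage value with nearby 3′ ends summed, nor exu with coding sequences summed. Thinned to the smallest library, bcd was at −1.23 (edgeR adjusted p = 0.0685). Few reads limit every 4–5 h share of exu and bcd forms.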
